A study of Mus musculus with 24 samples.

Results

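Kruppel-like factors are zinc-finger transcription factors, and 10 of their genes (Klf2, Klf3, Klf4, Klf5, Klf6, Klf7, Klf10, Klf11, Klf13 and Klf15) were followed here through the differentiation of mouse marrow-derived mesenchymal stem cells. They were picked by symbol from the 25385 genes of the deposited tables, and all 10 were among the 21097 genes tested. RNA-seq libraries were made from 8 groups of 3. The cells were in adipogenic medium for 7 days (5 µg/mL insulin, 50 µM indomethacin and 0.1 µM dexamethasone), in osteogenic medium for 7 or 15 days (ascorbic acid at 50 µg/mL with 10 mM β-glycerophosphate), or undifferentiated at day 0. In each of these 4 states the cells received either 100 nM 1,25(OH)2D3, the active form of vitamin D (VD3), or vehicle for 24 hours. All cells were expanded from frozen stocks for at most 10 passages in MEM alpha with 10% fetal bovine serum. Undifferentiated cells of later days are not analysed here, so in a comparison with day 0 the effects of the medium and of time in culture cannot be told apart. Whether the 3 replicates of a group came from different cultures is not stated in the labels, and the p-values describe only the spread between libraries, which may be technical.

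Kruppel-like factors bind GC-rich and CACCC sequences through their zinc fingers, and the parts of the proteins outside the fingers recruit activators or repressors. Several have known roles in fat and bone: Klf5 and Klf15 are promoters of adipocyte formation, Klf2, Klf3 and Klf7 are known as its inhibitors, Klf6 represses the preadipocyte gene Dlk1, and Klf10 is an early target of TGF-β that is needed for normal osteoblast function. Klf4 is one of the factors used to reprogram cells to pluripotency, and it represses smooth muscle genes.

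The labels' cell types were checked against marker genes. The summed level of 6 adipocyte markers was 27800 to 29990 RPKM, which are reads scaled by transcript length and library depth, in vehicle libraries of adipogenic day 7, against 66.7 to 86.6 RPKM at day 0. The sum of 8 osteoblast markers was 66.5 to 77.9 RPKM at day 0, 682 to 753 RPKM at osteogenic day 7 and 768 to 843 RPKM at osteogenic day 15. Of the 8, 7 were called higher (adjusted p below 0.05, limma) at each osteogenic time than at day 0, beside 13.6% and 17.5% of all tested genes. From osteogenic day 7 to day 15, 1 was called higher and 3 lower, beside 6.87% and 6.47% of all tested genes. Of 7 marrow stromal markers, 5 reached 1 RPKM in at least 3 of the 24 libraries. Eng was under 1 RPKM in every day 0 vehicle library, and the 7 summed to 1051 to 1052 RPKM there. Estimated depth was 7.09 to 46.1 M reads per library. The 1485 olfactory, vomeronasal and taste receptor genes, which these cells are not known to express, had a median of 3.39 to 4.93 RPKM in 5 libraries of 7.09 to 10.97 M reads, which were all the day 0 libraries except VD3 replicate 2. In the other 19 libraries, of 11.4 to 46.1 M reads, that median was 0.208 to 1.30 RPKM. Klf2, Klf5, Klf13 and Klf15 were below it in every day 0 vehicle library. The receptor level thus moved with the day 0 group, and differences after its subtraction from each library are given where they change the call of a member. Values below the receptor level became 0 in that subtraction. Genes at 1 RPKM or more numbered 19219 to 20956 in the 5 libraries with a high receptor level and 11943 to 14658 in the other 19. A gene could thus enter the tests, at 1 RPKM in 3 or more libraries, through day 0 libraries alone. Shares and medians over all tested genes include any such genes, and their number was not counted.

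The promoter windows of the 3 members that lead the results, Klf15, Klf6 and Klf4, are shown for the sites that the family's own proteins bind. Each runs from 250 bases before to 50 bases after the RefSeq gene start on GRCm38.p6, in the direction of the gene. That build is not the mm9 build of the deposited values, so the windows serve only as sequence. Capitals mark every CACCC (or its complement GGGTG) and every GGGCGG (or CCGCCC), the core of the GC box.
Klf15, chr6:90462326-90462625, plus strand: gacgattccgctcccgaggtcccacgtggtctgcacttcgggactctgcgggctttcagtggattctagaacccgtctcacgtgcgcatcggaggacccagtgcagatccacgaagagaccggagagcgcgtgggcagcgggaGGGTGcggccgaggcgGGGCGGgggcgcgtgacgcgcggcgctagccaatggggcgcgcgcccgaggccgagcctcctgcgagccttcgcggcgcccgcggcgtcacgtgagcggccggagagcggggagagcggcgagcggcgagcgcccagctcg
Klf6, chr13:5861239-5861538, plus strand: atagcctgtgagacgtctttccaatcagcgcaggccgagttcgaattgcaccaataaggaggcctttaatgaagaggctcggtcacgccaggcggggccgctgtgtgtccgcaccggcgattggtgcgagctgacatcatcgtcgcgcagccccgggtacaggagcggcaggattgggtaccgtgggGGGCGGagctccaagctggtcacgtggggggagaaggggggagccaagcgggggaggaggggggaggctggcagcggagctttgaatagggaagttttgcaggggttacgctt
Klf4, chr4:55532426-55532725, minus strand: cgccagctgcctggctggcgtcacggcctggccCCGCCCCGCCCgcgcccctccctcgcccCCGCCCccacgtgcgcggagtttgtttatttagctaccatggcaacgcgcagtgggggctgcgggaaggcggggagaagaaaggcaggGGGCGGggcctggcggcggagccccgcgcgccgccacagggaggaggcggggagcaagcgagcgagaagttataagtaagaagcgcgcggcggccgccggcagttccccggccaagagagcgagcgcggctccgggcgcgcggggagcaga
The Klf4 window held 4 GC boxes, a pair of which share 1 base, and no CACCC. The Klf6 window held 1 GC box and no CACCC, and the Klf15 window held 1 of each. Of all 32544 RefSeq windows of this length, 35.9% held a GC box and 57.7% a CACCC on either strand. All 8 members with a window held a GC box. Their windows were 58.3 to 77.7% G and C, against a median of 53.0% over all windows. None of the 8 held AGAACA or its complement TGTTCT, a core of the glucocorticoid receptor site, or AGGTCA or its complement TGACCT, a core bound by nuclear receptors. Those letters were in 18.9% and 16.2% of all windows.

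Klf6 was by far the most abundant of the 10 genes in every library. It ranged from 75.9 to 175 RPKM over the 24 libraries, with a median of 121 RPKM. Its share of the summed level of the 10 genes was 80.1% ± 0.828 in adipogenic vehicle libraries and 62.5% ± 2.72 in day 0 vehicle libraries (SD, n = 3 each). The mean receptor level was 0.732 RPKM in the former and 4.20 RPKM in the latter. The shares were not corrected for it, so that of day 0 is lowered by background in the other genes. Next came Klf10, from 7.69 to 24.5 RPKM, with Klf4 from 3.11 to 19.3 RPKM and Klf3 from 5.65 to 18.5 RPKM. These 4 genes passed 1 RPKM in all 24 libraries, as did Klf7 and Klf11. Klf5 was the lowest, with a median of 0.358 RPKM and 5 of 24 libraries at 1 RPKM or more. Of these 5, 3 were the day 0 vehicle libraries, without which Klf5 would not have entered the tests. Klf2, Klf13 and Klf15 lay between, with medians of 1.4975, 1.73 and 1.77 RPKM. RPKM is divided by transcript length, so these levels can be set beside each other, and in bulk RNA fewer cells with a transcript and less of it per cell cannot be told apart.

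**Figure D1:**
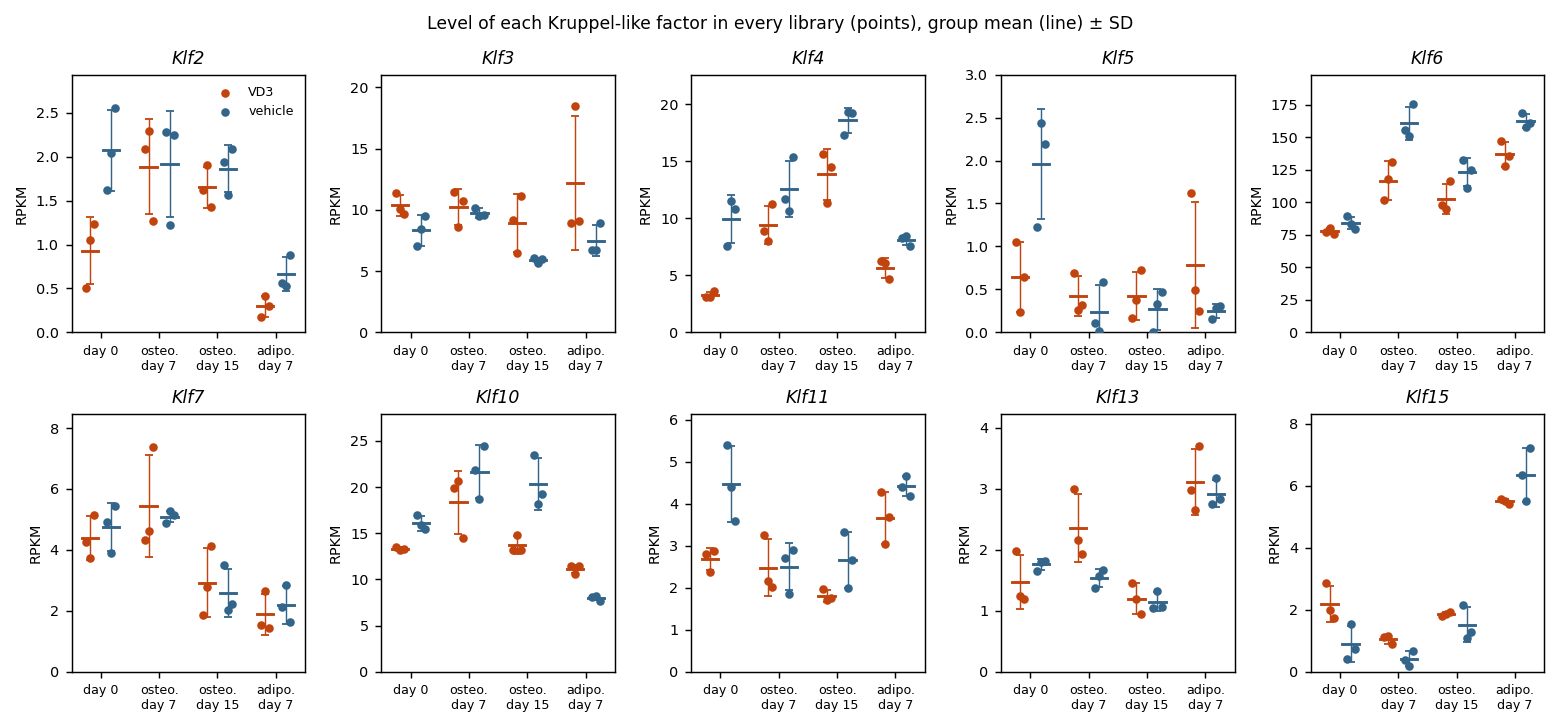
Level in RPKM (vertical axis, starting at 0) of each of the 10 genes in the 24 libraries, by cell state, with VD3 libraries left of vehicle libraries. Points are libraries and bars are means ± SD of 3. The means of Klf15 and Klf13 are highest in adipogenic cells, that of Klf10 is lowest there, and that of Klf4 is highest in vehicle libraries of osteogenic day 15.

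Adipogenic day 7 was set against day 0 in vehicle libraries to ask how the family changes as fat cells form. Klf15, Klf6 and Klf13 rose, and Klf10, Klf2, Klf7 and Klf5 fell. These 7 of 10 stand beside 78.6% of all tested genes called in that comparison at an adjusted p below 0.05, so the share called was close to that of all tested genes. Of all tested genes, 13.2% were called higher and 65.5% lower. These falls may include genes that passed the filter through day 0 libraries alone. The median log2 difference was -0.20 over the 10 genes and -0.83 over all tested genes.

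Klf15, an activator of the glucose transporter gene Slc2a4 and of amino acid breakdown, had the largest rise. Its level was 6.34, 5.50 and 7.22 RPKM in adipogenic libraries, against 0.411, 1.52 and 0.734 RPKM in day 0 libraries. Every adipogenic library was above every day 0 library, and also above its own receptor level of 0.599 to 0.834 RPKM. On the log2(RPKM + 1) scale the difference was 2.00 ± 0.20 (SE, adjusted p = 2.52e-08, limma).
Klf6 had 168, 158 and 161 RPKM in adipogenic libraries, against 89.3, 83.0 and 79.6 RPKM in day 0 libraries. The groups were far apart, with a log2 difference of 0.94 ± 0.10 (SE, adjusted p = 2.86e-08). Klf6 was far above the receptor level in all 24 libraries.
Klf13, a factor that binds GC-rich promoters, had 2.75, 3.18 and 2.84 RPKM in adipogenic libraries, against 1.66, 1.80 and 1.82 RPKM in day 0 libraries. The groups did not overlap, and the log2 difference was 0.51 ± 0.17 (SE, adjusted p = 0.00888). The 3 rises were called under every alternative processing in which they were tested. For Klf13 and Klf15, background subtraction could show no fall, because all their day 0 vehicle values became 0. Klf13 did not pass the filter at 5 RPKM and was not tested there.

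Klf10 was the largest fall among well-expressed members. It had 8.04, 8.16 and 7.69 RPKM in adipogenic libraries, against 17.0, 15.8 and 15.4 RPKM in day 0 libraries. The adipogenic levels lay close together and well below those of day 0, at a log2 difference of -0.93 ± 0.12 (SE, adjusted p = 5.31e-07). Among VD3-treated libraries the difference was -0.24 and was not called (adjusted p = 0.0908).
Klf2, Klf7 and Klf5 were called lower at log2 differences of -0.88, -0.86 and -1.22. However, Klf2 and Klf5 were below the receptor level in every day 0 vehicle library, and Klf7 was near it. After each library's receptor median was subtracted, Klf2 and Klf7 took the opposite sign, at 0.05 and 0.64. Klf2 had become 0 in every day 0 vehicle library, so subtraction could not show a fall for it. Klf5 then no longer reached 1 RPKM in 3 libraries, so its falls could not be tested after subtraction. Quantile normalization, which moved the median of all genes by 0.75, gave 0.19 for Klf2 and 0.09 for Klf7. Klf5 had 0.160, 0.279 and 0.309 RPKM in adipogenic libraries, against 1.23, 2.44 and 2.19 RPKM in day 0 libraries. It passed the filter only through the day 0 vehicle libraries, the group where it was high, so its fall has little weight. Klf5 changed sign, to 0.07, when VD3-treated libraries were compared. Klf3 (-0.14) and Klf4 (-0.25) did not pass the test, nor did Klf11, at 4.41 ± 0.242 RPKM in adipogenic and 4.46 ± 0.900 RPKM in day 0 cells (SD, n = 3 each). Background subtraction gave Klf3 the opposite sign (0.60), and Klf11 was called higher after it (1.53). Among VD3-treated libraries, Klf4 was called higher in adipogenic cells, at 0.63. Without day 0 vehicle replicate 1, Klf4 was called at -0.42.

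**Figure D2:**
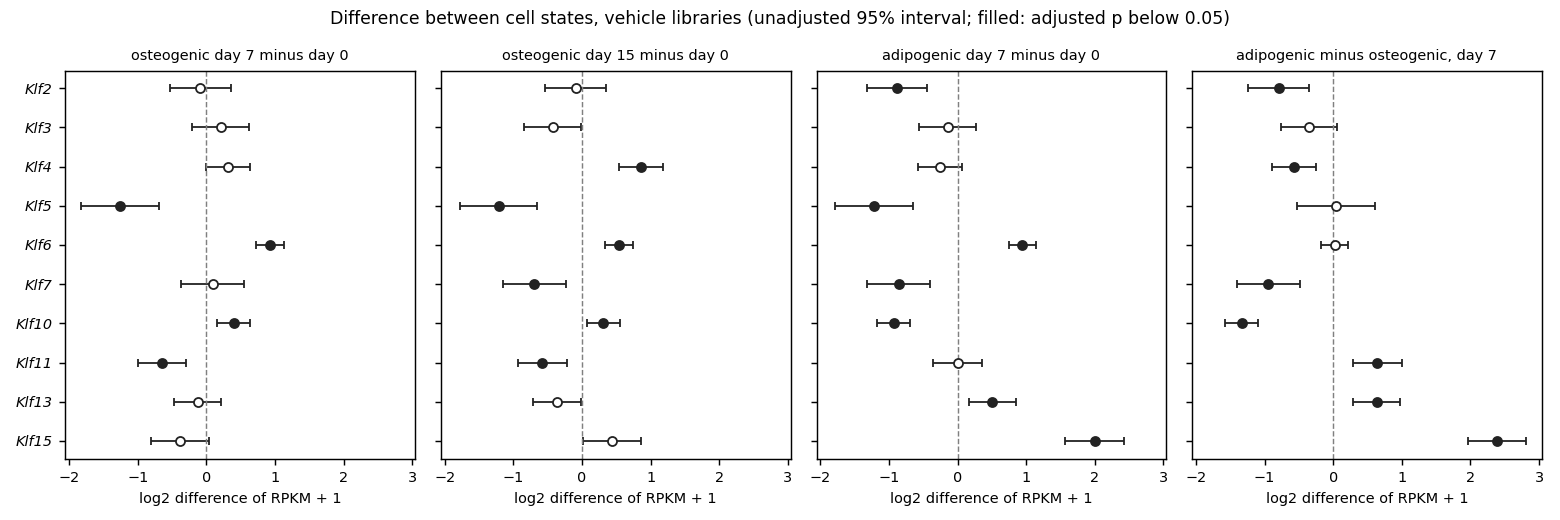
Differences in log2(RPKM + 1) between cell states in vehicle libraries (horizontal axis) for each gene, with unadjusted 95% intervals. Filled points passed an adjusted p of 0.05. Klf15 stands at 2.00 and 2.38 in the panels of adipogenic cells against day 0 and against osteogenic day 7.

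Adipogenic and osteogenic cells of day 7 had the same time in culture, and their libraries had low receptor levels (0.599 to 0.834 RPKM in adipogenic and 0.208 to 0.405 RPKM in osteogenic vehicle libraries). Klf15, Klf11 and Klf13 were higher in adipogenic cells, and Klf10, Klf7, Klf2 and Klf4 were lower. These 7 of 10 stand beside 37.8% of all tested genes. The median log2 difference was -0.17 over the 10 genes and 0.02 over all tested genes. None of these 7 calls was lost when any 1 library was left out.

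Klf15 was low in osteogenic cells at this time. It had 6.34, 5.50 and 7.22 RPKM in adipogenic libraries, against 0.384, 0.193 and 0.668 RPKM in osteogenic libraries. The difference was 2.38 ± 0.20 on the log2 scale (SE, adjusted p = 1.20e-09).
Klf10 showed the widest gap in the other direction. It had 8.04, 8.16 and 7.69 RPKM in adipogenic libraries, against 21.9, 18.7 and 24.5 RPKM in osteogenic libraries. The groups were far apart, with a log2 difference of -1.33 ± 0.12 (SE, adjusted p = 1.56e-09).
Klf7 had 2.12, 2.84 and 1.62 RPKM in adipogenic libraries, against 4.88, 5.27 and 5.13 RPKM in osteogenic libraries. Its osteogenic levels lay within a narrow range above all adipogenic ones, and the log2 difference was -0.95 ± 0.22 (SE, adjusted p = 0.0012).
Klf2, best known from blood vessel cells, had 0.567, 0.531 and 0.882 RPKM in adipogenic libraries, against 2.28, 1.22 and 2.25 RPKM in osteogenic libraries. The log2 difference was -0.80 ± 0.21 (SE, adjusted p = 0.0041). These adipogenic values lay around the receptor level, and the 6 endothelial markers were under 1 RPKM in every adipogenic vehicle library. Of the 6, 5 were also under 1 RPKM in every osteogenic day 7 vehicle library.

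Klf4 had 8.28, 8.43 and 7.56 RPKM in adipogenic libraries, against 11.7, 10.6 and 15.4 RPKM in osteogenic libraries. The groups did not overlap, with a log2 difference of -0.57 ± 0.15 (SE, adjusted p = 0.0047). It was not called after rescaling by median ratios, which moved the median of all genes by 0.13 (log2 difference -0.30, adjusted p = 0.144), after quantile normalization (-0.31) or after background subtraction (-0.65).
Klf11, a relative of Klf10 that also responds to TGF-β, had 4.40, 4.66 and 4.18 RPKM in adipogenic libraries, against 2.71, 1.86 and 2.91 RPKM in osteogenic libraries. Klf10 and Klf11 thus differed between the media in opposite directions. The log2 difference of Klf11 was 0.64 ± 0.17 (SE, adjusted p = 0.00378), and that of Klf13 was 0.63 ± 0.17 (SE, adjusted p = 0.0035). Neither was called after background subtraction (0.57 and 0.54) or in VD3-treated libraries (0.43 and 0.30). Klf6 was not called, at 162 ± 5.45 RPKM in adipogenic and 161 ± 12.8 RPKM in osteogenic cells (SD, n = 3 each), and the 95% interval of its log2 difference ran from -0.18 to 0.22. After median-ratio rescaling Klf6 was called higher, at 0.31 (adjusted p = 0.0153). Klf3 (log2 difference -0.35) and Klf5 (0.04) were not called either. Klf3 was called lower when only these groups were fitted (adjusted p = 0.043), and was 0.16, not called, in VD3-treated libraries.

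In osteogenic medium, Klf6 was higher than at day 0 at both times and Klf4 was higher at day 15, while the rise of Klf10 depended on the setting at day 15. At day 7, 2 of the 10 genes were higher (Klf6 and Klf10) and 2 lower (Klf11 and Klf5), beside 64.0% of all tested genes called. At day 15, 3 were higher (Klf4, Klf6 and Klf10) and 3 lower (Klf5, Klf7 and Klf11), beside 70.9%. The median log2 difference was 0.0 and -0.23 over the 10 genes at days 7 and 15, and -0.46 and -0.55 over all tested genes.
Klf6 had 89.3, 83.0 and 79.6 RPKM at day 0, 155, 151 and 175 RPKM at osteogenic day 7 and 132, 111 and 124.96 RPKM at day 15. All 6 osteogenic libraries were above all day 0 libraries. The log2 differences from day 0 were 0.93 ± 0.10 at day 7 and 0.54 ± 0.10 at day 15 (SE, adjusted p = 2.95e-07 and 7.16e-05). With VD3 replicate 2 as the only day 0 library, the day 15 difference was 0.34 and was not called.
Klf4 had 7.59, 11.5 and 10.8 RPKM at day 0, 11.7, 10.6 and 15.4 RPKM at day 7 and 17.3, 19.3 and 19.2 RPKM at day 15. Day 7 overlapped with day 0, and day 15 was above both. The difference at day 15 was 0.86 ± 0.15 (SE, adjusted p = 7.30e-05), and that at day 7 was 0.31 (adjusted p = 0.0807). The day 7 difference was called in several other settings: at 1.27 among VD3-treated libraries (adjusted p = 1.94e-06), at 1.32 with VD3 replicate 2 as the only day 0 library, at 1.02 after background subtraction (adjusted p = 0.00727), and at 0.42 when replicate 2 of either vehicle group was left out.
Klf10 had 17.0, 15.8 and 15.4 RPKM at day 0, 21.9, 18.7 and 24.5 RPKM at day 7 and 23.5, 18.1 and 19.3 RPKM at day 15. All 6 osteogenic libraries were above those of day 0. The day 7 difference was 0.40 ± 0.12 (SE, adjusted p = 0.00459). The day 15 difference was 0.31 (adjusted p = 0.0207) and was not called without day 0 vehicle replicate 2 (0.30) or 3 (0.28) or without osteogenic day 15 vehicle replicate 1 (0.21), nor after median-ratio rescaling (0.19) or quantile normalization (0.22). Among VD3-treated libraries it was 0.04 (adjusted p = 0.798), with means of 13.7 RPKM at osteogenic day 15 and 13.3 RPKM at day 0, and it was 0.05 (adjusted p = 0.906) with VD3 replicate 2 as the only day 0 library. The day 7 difference was not called in that last setting (0.43, adjusted p = 0.142).

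The lower members gave less settled differences from day 0. Klf11 was called lower at days 7 and 15, at -0.64 and -0.58, but took the opposite sign after quantile normalization (0.17 and 0.25) and after background subtraction (0.96 and 1.02). Klf7, called lower at day 15 at -0.69, was 0.10 after quantile normalization and 1.05 after background subtraction. At day 7 Klf7 was not called (0.09), but was called higher after both, at 0.71 and 1.90. Klf5 passed the filter only through the day 0 vehicle libraries, where it was high. It was at 0 to 0.591 RPKM in the 6 osteogenic vehicle libraries and not testable after background subtraction, and was called lower at -1.26 and -1.21. With day 0 VD3 replicate 2, the deep library, as the only day 0 library of a comparison within VD3-treated cells, the 2 values were 0.19 and 0.18. Klf2 and Klf13 were not called at either time (log2 differences of -0.09 for Klf2 at both times, and -0.13 and -0.37 for Klf13), and both were called higher after background subtraction and after quantile normalization. Klf13 was called lower at day 15 with a pseudocount of 0.1 RPKM (-0.58) and after median-ratio rescaling (-0.43). Klf15 was not called at -0.39 and 0.43. At day 7 it was called lower without day 0 vehicle replicate 1 (-0.58), with a pseudocount of 0.1 RPKM (-0.89) and among VD3-treated libraries (-0.62), and higher after quantile normalization (0.51). At day 15 it was called higher after quantile normalization (1.26, adjusted p = 2.52e-05) and background subtraction (1.09, adjusted p = 0.00202), and on leaving out replicate 2 of day 0 (0.66) or of day 15 (0.55). Background subtraction left Klf2, Klf13 and Klf15 at 0 in every day 0 vehicle library, so it could show no fall for them. Klf3 was not called at 0.21 and -0.43. At day 7 background subtraction gave it a called rise of 1.05 (adjusted p = 0.00066). At day 15 it was called lower at -0.53 without day 0 vehicle replicate 1 and after median-ratio rescaling, and at -0.43 when fewer groups were fitted.

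**Figure D3:**
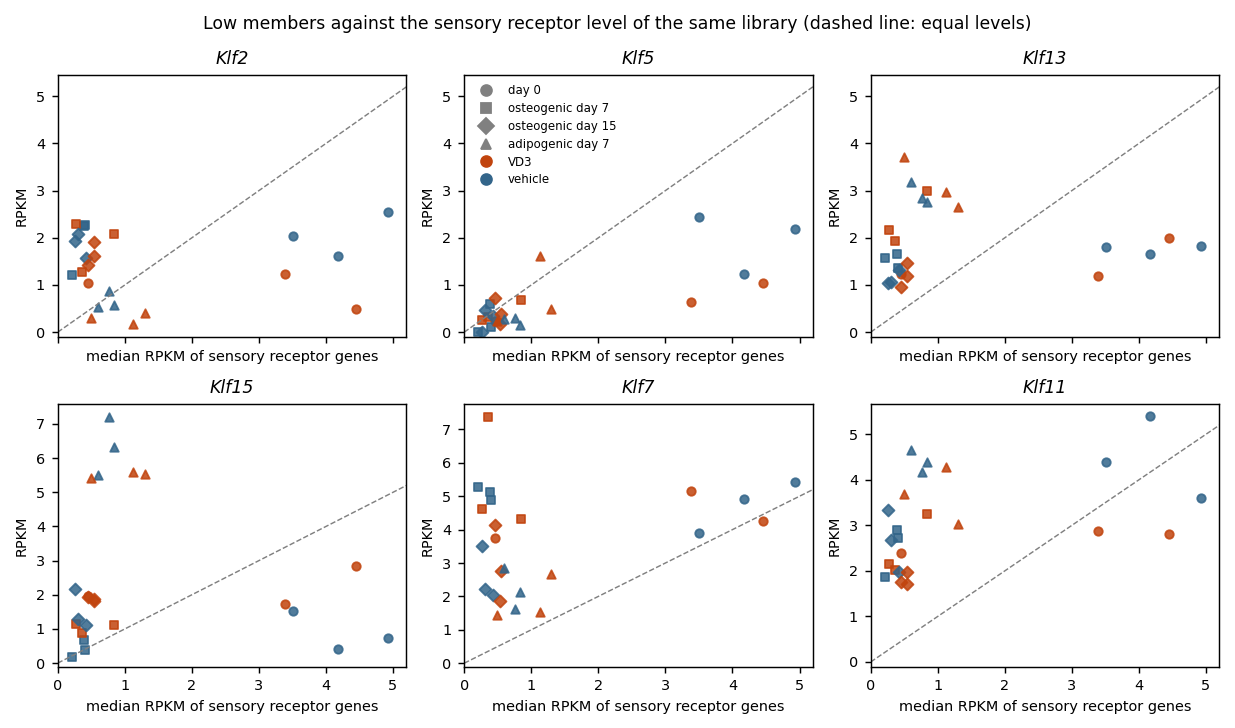
Level in RPKM of the 6 lower members (vertical axes) against the median RPKM of 1485 sensory receptor genes in the same library (horizontal axes), for 24 libraries. Symbols give the cell state and colours the treatment, and on the dashed line both levels are equal. The 5 libraries at the right, all of day 0, have medians of 3.39 to 4.93 RPKM, and Klf5, Klf2, Klf13 and Klf15 lie below the line there.

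Within osteogenic medium, day 15 differed from day 7 in 5 of the 10 genes, beside 13.3% of all tested genes. The receptor level was 0.265 to 0.426 RPKM at day 15 and 0.208 to 0.405 RPKM at day 7. Klf15 had 2.16, 1.10 and 1.29 RPKM at day 15, against 0.384, 0.193 and 0.668 RPKM at day 7. It was higher in every day 15 library, with a log2 difference of 0.82 ± 0.20 (SE, adjusted p = 0.00764), and was not called without day 15 vehicle replicate 1 (0.65), when only these groups were fitted or in VD3-treated libraries (0.49).
Klf4 was higher at day 15 (log2 difference 0.54 ± 0.15, SE, adjusted p = 0.0196). It was not called on leaving out replicate 1 (0.51) or 2 (0.44) of day 7, or replicate 2 or 3 of day 15 (0.52 each). Klf6 was lower at day 15 (-0.38 ± 0.10, SE, adjusted p = 0.00896), and not called without day 7 vehicle replicate 3 (-0.32) or day 15 vehicle replicate 2 (-0.31), or in VD3-treated libraries (-0.18, adjusted p = 0.274).
Klf7 had 3.50, 2.03 and 2.22 RPKM at day 15, against 4.88, 5.27 and 5.13 RPKM at day 7. The day 15 libraries were all lower (-0.79 ± 0.22, SE, adjusted p = 0.0186), but the difference was not called on leaving out replicate 2 (-0.77) or 3 (-0.78) of day 7 or replicate 2 (-0.68) or 3 (-0.72) of day 15.
Klf3, a repressor that acts with CtBP proteins, had 6.05, 5.65 and 5.998 RPKM at day 15, against 10.2, 9.51 and 9.56 RPKM at day 7. The groups were tight and well apart, at -0.64 ± 0.20 (SE, adjusted p = 0.0345). The call was nonetheless lost on leaving out any 1 of the 6 libraries, at -0.66 to -0.61, and in VD3-treated libraries the difference was -0.20. None of Klf3, Klf4 and Klf7 was called between the days after quantile normalization (-0.58, 0.49 and -0.61) or background subtraction (-0.67, 0.56 and -0.86). With 1 library left out, 1 to 3 of the 10 genes were called in this comparison, against 5 with all libraries. Klf10 and Klf13, not called between the days (-0.09 and -0.24), were called lower at day 15 in VD3-treated libraries, at -0.38 and -0.61.

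The hormone comparison asked how 24 hours of VD3 moved each gene in each state. At day 0, Klf15 was higher and Klf4, Klf5, Klf2 and Klf11 were lower in VD3-treated cells, 5 of 10 beside 15.0% of all tested genes. The median log2 difference was -0.21 over the 10 genes and -0.27 over all tested genes.
Klf4 had 3.13, 3.11 and 3.61 RPKM in VD3-treated libraries, against 7.59, 11.5 and 10.8 RPKM in vehicle libraries. The groups did not overlap, and the log2 difference was -1.34 ± 0.15 (SE, adjusted p = 1.99e-06). The call held under every alternative, and leaving out 1 library gave -1.50 to -1.23. In VD3 replicate 1 Klf4 was below that library's receptor level of 4.45 RPKM. In replicate 3 it was just above the receptor level of 3.39 RPKM. Replicate 2, at 3.11 RPKM of Klf4, had a receptor level of 0.456 RPKM.
Klf15 had 2.85, 1.98 and 1.73 RPKM in VD3-treated libraries, against 0.411, 1.52 and 0.734 RPKM in vehicle libraries. Every VD3 library was higher (0.78 ± 0.20, SE, adjusted p = 0.0132), but in replicates 1 and 3 the level was below the receptor level. The difference was not called without vehicle replicate 1 (0.59), after background subtraction (0.45) or when only these 6 libraries were fitted (adjusted p = 0.272).

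The other 3 falls with VD3 at day 0 depended on single libraries, and none of them was called when only the 6 day 0 libraries were fitted (adjusted p from 0.221 to 0.297) or with a pseudocount of 0.1 RPKM. Klf2, at 0.500, 1.05 and 1.23 RPKM in VD3-treated libraries, against 1.62, 2.04 and 2.55 RPKM in vehicle libraries, had a log2 difference of -0.68 (adjusted p = 0.0352). It was not called without vehicle replicate 2 (-0.68) or 3 (-0.57) or VD3 replicate 1 (-0.51), and was 0.22 after background subtraction. Every vehicle value of Klf2 had become 0 in that subtraction, so no fall could show. Klf5 differed by -0.85 (adjusted p = 0.0393) and could not be tested after background subtraction. It had passed the filter only through these vehicle libraries, where it was higher. It was not called without vehicle replicate 2 (-0.73) or 3 (-0.78), or VD3 replicate 2 (-0.66) or 3 (-0.86). Klf11 had 2.81, 2.38 and 2.87 RPKM in VD3-treated libraries, against 5.39, 4.39 and 3.60 RPKM in vehicle libraries. All VD3 values were lower, by -0.56 on the log2 scale (adjusted p = 0.0318). This was not called without vehicle replicate 1 (-0.44) or 2 (-0.56), or VD3 replicate 2 (-0.50), nor after quantile normalization (-0.30) or background subtraction (-0.17). Of these 3 genes, Klf2 and Klf5 were below the receptor level in every vehicle library. Klf6, Klf7, Klf10, Klf13 and Klf3 were not called at day 0, with log2 differences of -0.11, -0.09, -0.25, -0.17 and 0.29. After background subtraction Klf3 was called higher with VD3, at 0.75 (adjusted p = 0.036).

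In differentiated cells few of the 10 genes were called with VD3. Their median log2 difference was 0.02, -0.04 and -0.16 at osteogenic days 7 and 15 and adipogenic day 7, against 0.07, 0.02 and 0.05 over all tested genes. At osteogenic day 7 Klf6 alone was called, beside 5.26% of all tested genes. It had 101, 117 and 131 RPKM in VD3-treated libraries, against 155, 151 and 175 RPKM in vehicle libraries. All VD3 libraries were lower, with a log2 difference of -0.46 ± 0.10 (SE, adjusted p = 0.00406). The call held whichever library was left out and was lost when only these 6 libraries were fitted (adjusted p = 0.125). Klf4, Klf13 and Klf15 also had an unadjusted p below 0.05 in limma there.
At osteogenic day 15 Klf10 alone was called, beside 0.773% of all tested genes. It had 13.2, 14.8 and 13.2 RPKM in VD3-treated libraries, against 23.5, 18.1 and 19.3 RPKM in vehicle libraries. The groups did not overlap, with a log2 difference of -0.53 ± 0.12 (SE, adjusted p = 0.0279). It was not called without vehicle replicate 1 (-0.42) or 3 (-0.56) or VD3 replicate 1 or 3 (-0.50 each), nor after quantile normalization (-0.48) or background subtraction (-0.55), nor when only these 6 libraries were fitted (adjusted p = 0.189). Klf3, Klf4, Klf6 and Klf11 also had an unadjusted p below 0.05 in limma at this time.
At adipogenic day 7 none of the 10 was called by limma, beside 2.08% of all tested genes, though 4 of them (Klf3, Klf4, Klf6 and Klf10) had an unadjusted p below 0.05. Klf10 came closest. It had 11.4, 10.6 and 11.4 RPKM in VD3-treated libraries, against 8.04, 8.16 and 7.69 RPKM in vehicle libraries. The groups were clearly separate, at a log2 difference of 0.44 ± 0.12 (SE, adjusted p = 0.0505). It was called with a pseudocount of 0.1 RPKM (0.48, adjusted p = 0.0369) and with a filter at 5 RPKM (0.44, adjusted p = 0.0271).
The log2 differences with VD3 of Klf2, Klf4, Klf6 and Klf11 were below 0 in all 4 states, although for each of these genes 3 of the 4 did not pass the test. For Klf4 the log2 differences outside day 0 were -0.38 at osteogenic day 7, -0.41 at osteogenic day 15 and -0.46 at adipogenic day 7. For Klf6 they were -0.11 at day 0, -0.26 at osteogenic day 15 and -0.25 at adipogenic day 7. The differences of Klf3 were above 0 in all 4 states and none was called without background subtraction, with 1 adipogenic VD3 library at 18.5 RPKM beside 8.92 and 9.11 RPKM.

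**Figure D4:**
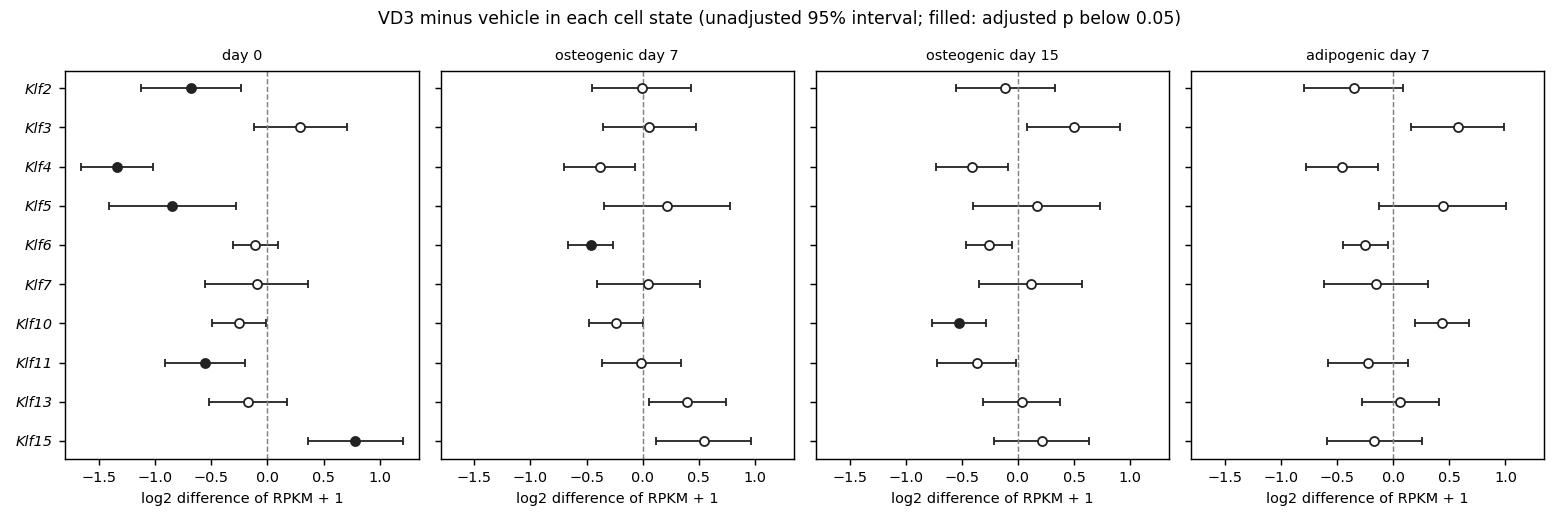
VD3 minus vehicle on the log2(RPKM + 1) scale (horizontal axis) for each gene in the 4 states, with unadjusted 95% intervals. Filled points passed an adjusted p of 0.05. Klf4 at day 0 lies farthest from 0, at -1.34, and Klf10 lies at 0.44 in adipogenic cells and at -0.53 at osteogenic day 15.

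Tests of the difference in VD3 effect between states called Klf4 and Klf10. The effect on Klf4 was weaker at osteogenic day 7 than at day 0, by 0.95 ± 0.22 on the log2 scale (SE, adjusted p = 0.0223), the only 1 of 10 genes called beside 2.55% of all tested genes. It was also weaker at adipogenic day 7 than at day 0, by 0.88 ± 0.22 (SE, adjusted p = 0.0252). In that comparison 2 of 10 genes were called, beside 3.47% of all tested genes. Leaving out 1 library ended the first call for replicate 2 (0.85) or 3 (0.89) of day 0 vehicle, replicate 2 of day 0 VD3 (0.92), replicate 1 (0.92) or 2 (0.85) of osteogenic vehicle and replicate 3 of osteogenic VD3 (0.83). It ended the second for replicate 2 (0.78) or 3 (0.82) of day 0 vehicle, replicate 2 of day 0 VD3 (0.85), replicate 1 (0.90) or 3 (0.84) of adipogenic vehicle and replicate 1 (0.81) or 2 (0.83) of adipogenic VD3. The adjusted p-values of these lost calls ran from 0.0508 to 0.073, and fitting only the groups compared gave 0.125 and 0.0504. After background subtraction neither was called (1.55 and 1.42).
The effect on Klf10 in adipogenic cells was more positive than at day 0, by 0.69 ± 0.16 (SE, adjusted p = 0.0195), and than at osteogenic day 7, by 0.68 ± 0.16 (SE, adjusted p = 0.0315). The mean of Klf10 was higher with VD3 in adipogenic cells (not called) and lower with VD3 in the other 3 states (called at osteogenic day 15). The first of these calls was lost without adipogenic vehicle replicate 3 (0.67). The second, beside 1.82% of all tested genes, was lost without osteogenic day 7 vehicle replicate 1 (0.67) or 3 (0.59), osteogenic VD3 replicate 3 (0.52), adipogenic vehicle replicate 1 (0.68), 2 (0.69) or 3 (0.65) and adipogenic VD3 replicate 1 (0.66), 2 (0.71) or 3 (0.66). Neither was called after background subtraction (0.60 and 0.69). None of the 10 genes was called between osteogenic days 15 and 7, beside 0.185% of all tested genes, and none had an unadjusted p below 0.05 there. Klf5 was called in the first comparison without day 0 VD3 replicate 1 (1.24). In the adipogenic one it was called without day 0 vehicle replicate 1 (1.48), day 0 VD3 replicate 1 (1.46) or adipogenic VD3 replicate 3 (1.51), and Klf15 without day 0 vehicle replicate 2 (-1.18), after median-ratio rescaling (-1.01) or after quantile normalization (-1.10).

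Among 17 other genes of the Kruppel-like and Sp family, 11 passed the filter of at least 1 RPKM in at least 3 libraries. Of these, 1 was higher and 4 were lower in adipogenic than in osteogenic cells of day 7. Of all tested genes, 12.4% were called higher and 25.4% lower. The list median was -0.15 on the log2 scale, against 0.02 over all tested genes. Klf9, which is known to be induced by glucocorticoid hormones, was higher, at 84.6 RPKM in adipogenic and 47.4 RPKM in osteogenic cells (log2 difference 0.83). Among VD3-treated libraries this difference was 0.04. Sp7, the osteoblast factor osterix, was lower, at 2.26 RPKM in adipogenic and 8.58 RPKM in osteogenic cells (-1.54), and so was Sp6 (-0.82).
With VD3, Klf9 rose at day 0, to 86.2 RPKM, against 61.5 RPKM in vehicle cells (log2 difference 0.48), and at osteogenic day 7, to 86.1 RPKM, against 47.4 RPKM in vehicle cells (0.85). It was the only gene of this list called higher with VD3 in any state. Of all tested genes, 3.98% were called higher with VD3 at day 0 and 2.91% at osteogenic day 7. Both Klf9 calls with VD3 held under every alternative tried. Sp7 was lower with VD3 at adipogenic day 7 (-0.78), a call lost without adipogenic vehicle replicate 3 (-0.71) or VD3 replicate 3 (-0.61). It was also called lower at day 0 (-0.50), but not without any of 5 of the 6 libraries there, which gave -0.53 to -0.40, and it was near 0 after quantile normalization (0.04) or background subtraction (0.02).

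The partners through which these factors act were compared between fat cells and osteogenic cells. Of 15 cofactors and ubiquitin ligases known to act with Kruppel-like proteins, 12 were lower and 1 was higher in adipogenic than in osteogenic cells of day 7, beside 25.4% of all tested genes called lower and 12.4% called higher. The list median was -0.46 on the log2 scale, against 0.02 over all tested genes. Fhl3, a LIM-domain cofactor, differed by -1.78 and Hdac2, a histone deacetylase, by -1.14. The count depended on scaling. After median-ratio rescaling 4 were lower and 2 higher, and after quantile normalization 5 were lower and 2 higher, with list medians of -0.22 and -0.24. Hdac1, the one that was higher (0.41), was not called without either osteogenic replicate 1 or 2 (0.44 and 0.31) or without any of the 3 adipogenic replicates (0.37, 0.42 and 0.43). With VD3, Ctbp1 was higher at day 0 (0.42) and Sin3b was called lower there (-0.42) unless only its largest transcript was used (0.04).

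Genes known as targets of Kruppel-like factors were listed from fat, bone, muscle and vessel cells. A list so mixed holds genes of each cell type, so a split between media does not bear on the factors themselves. Of 20 that passed the filter, 8 were higher and 10 lower in adipogenic than in osteogenic cells of day 7. Of all tested genes, 12.4% were called higher and 25.4% lower. The list median was -0.06 (0.12 after median-ratio rescaling and 0.02 with a pseudocount of 0.1 RPKM), against 0.02 over all tested genes. The largest rises were in fat genes. Adipoq, the hormone adiponectin, differed by 7.85 and Slc2a4, the insulin-responsive glucose transporter, by 4.48. Slc2a4 is a known target of Klf15. The largest falls were in smooth muscle genes, Tagln at -3.67 and Acta2 at -3.45.
With VD3 at day 0, 1 of these 20 was higher and 8 were lower. Of the 21097 tested genes, 840 were called higher and 2328 lower in that comparison. The list median was -0.3 on the log2 scale, close to the -0.27 over all tested genes. Thbd, the endothelial receptor thrombomodulin, a known target of Klf2 and Klf4, was higher at 61.3 RPKM in VD3-treated cells, against 32.0 RPKM in vehicle cells (log2 difference 0.92). Tagln, a smooth muscle gene, was lower (-1.01). The 4 smooth muscle markers, which share Tagln and Acta2 with this list, summed to 422 to 465 RPKM in VD3-treated cells of day 0, against 746 to 763 RPKM in vehicle cells. Whether this bears on the fall of Klf4 there was not tested.

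Klf2, Klf4, Klf6 and Klf10 are known as genes that respond fast to growth factors, so classical immediate early genes were set beside them. Of 14 that passed the filter, 1 was higher and 10 were lower in adipogenic than in osteogenic cells of day 7. The list median was -0.73, against 0.02 over all tested genes, of which 12.4% were called higher and 25.4% lower. Junb differed by -2.38, Ier3 by -2.23 and Atf3, the one that was higher, by 3.83. In VD3-treated cells of day 0, 2 were higher (Dusp1 at 0.62 and Junb at 0.45) and 4 were lower, with Egr2 at -1.10 and Atf3 at -0.97. Both higher calls were lost without day 0 vehicle replicate 1 (0.46 for Dusp1 and 0.36 for Junb), that of Dusp1 also without VD3 replicate 2 (0.60), and the lower ones fell to 2 after quantile normalization and 1 after background subtraction.
The adipogenic medium contained dexamethasone, a synthetic glucocorticoid, and Klf15 and Klf9 are known glucocorticoid targets. Of 13 glucocorticoid-responsive genes that passed the filter, 10 were higher and 2 lower in adipogenic than in osteogenic cells of day 7. The list median was 1.83, against 0.02 over all tested genes, of which 12.4% were called higher and 25.4% lower. Lcn2 differed by 5.91, Glul by 5.01, Errfi1 by -3.16 and Dusp1 by -0.80. Dexamethasone and the fat cells themselves came together in these libraries and cannot be told apart.

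The genes most like each member over the 24 libraries were found by Pearson's r on log2(RPKM + 1) among 8859 candidate genes, which had to reach a mean of 5 RPKM in some group. The r values describe libraries that share cell state and receptor level. For Klf15 they were Hagh (r = 0.950), Nbr1 (0.942) and Atg12 (0.941). Hagh had 61.8 RPKM in adipogenic, 9.39 RPKM in osteogenic day 7 and 10.1 RPKM in day 0 vehicle cells. For Klf10 they were B4galt1 (r = 0.947), Rarb (0.926) and Mfap3 (0.915). For Klf6, Wrb was among them (r = 0.923). Klf4 was most like Ets2 (r = 0.910), Ptprd (0.902) and Sfrp2 (0.901). Ets2 had 3.31 RPKM in VD3-treated and 6.36 RPKM in vehicle cells at day 0. Klf13 was most like Akap13 (r = 0.923), Irgq (0.919) and Ipo9 (0.911), Klf2 like Appl1 (0.900), Nbl1 (0.897) and Spry1 (0.896), and Klf7 like S100a6 (0.891), Rab2b (0.885) and Serpinf1 (0.880). Klf11 was most like Mc5r (r = 0.833), Ptprk (0.830) and Cldn1 (0.820), and Klf3 was least tied to any gene, with Dynlt1a (0.740), Msi2 (0.710) and Nme3 (0.670). The 3 genes most like Klf5 were the olfactory receptors Olfr1418 (r = 0.898), Olfr1024 (0.879) and Olfr1318 (0.862). In the 18 libraries of differentiated cells, the genes most like Klf15 were Nbr1 (r = 0.975), Prune (0.973) and Mrpl12 (0.972), and those most like Klf5 were again olfactory receptors.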

How the data were processed

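RNA-seq libraries of mouse marrow-derived mesenchymal stem cells were analysed, 24 libraries in 8 groups of 3. Per the labels' protocols, directional ScriptSeq v2 libraries were prepared from DNase-treated total RNA after RiboMinus removal of ribosomal RNA. Reads were aligned with TopHat to mm9, per the submitters' processing notes. The counting tool, annotation and filters are not given in the sources used here. The authors deposited RPKM values per transcript. Transcripts were summed by symbol, and each of the 10 members had 1 transcript. The 25 symbols turned into dates were left out.

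The 21097 genes that reached 1 RPKM in 3 or more libraries entered limma (version 3.58.1, R 4.3.3) as log2(RPKM + 1) values. The model held 8 group means over all 24 libraries, empirical Bayes used trend and robust options, and adjustment was by Benjamini-Hochberg over all tested genes of each of 13 comparisons, at an adjusted p of 0.05. Fold changes on this scale understate changes of low genes. Depth was estimated from the step between low values of olfactory receptor genes, so it is approximate, and 3 reads on 1 kilobase are 0.065 to 0.423 RPKM. Background subtraction removed each library's median over 1485 sensory receptor genes, and values that fell below 0 were set to 0. Other alternatives were another pseudocount, filters, normalizations, a replicate block, a narrower fit, VD3-treated libraries and each library left out.

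Same-numbered libraries of different groups mostly did not deviate together (r from -0.352 to 0.444 over 84 pairs, median 0.004). In 13 pairs r was above 0.1, with 0.423 and 0.444 for replicates 1 and 2 of day 0 and osteogenic day 7 VD3 libraries. Replicate numbers were not taken as pairs. Promoter windows and gene starts came from RefSeq (GRCm38.p6), with windows for 8 of 10 members. The members, lists and tests were chosen with earlier results of these data known. The text names all 10 members, genes among the 3 most like each, and from each list called genes among the 2 largest rises and 2 largest falls in a comparison described. A few genes that this rule names are not reported here, and values of a named gene in other comparisons were chosen after they were seen. The script was tested on simulated data. Data were prepared in Python 3.11.15 with pandas 2.3.3, and figures were drawn with matplotlib 3.10.9.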

Additional observations from a re-analysis of the deposited data

Results flagged for a closer look

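The VD3 effect differed between states in 4 tests of the difference itself, for Klf4 and Klf10. For Klf4 it was 0.95 higher on the log2 scale at osteogenic day 7 than at day 0, and 0.88 higher at adipogenic day 7 than at day 0. For Klf10 it was 0.69 higher at adipogenic day 7 than at day 0, and 0.68 higher at adipogenic than at osteogenic day 7. The mean of Klf10 was 11.1 ± 0.468 RPKM in VD3-treated and 7.96 ± 0.244 RPKM in vehicle adipogenic cells, and 18.3 ± 3.38 RPKM in VD3-treated and 21.7 ± 2.87 RPKM in vehicle osteogenic cells of day 7 (SD, n = 3 each). All 4 calls were lost without at least 1 library. The receptor level of the day 0 VD3 libraries ranged from 0.456 to 4.45 RPKM. After subtraction of each library's receptor level the 4 differences were 1.55, 1.42, 0.60 and 0.69, and none was called (adjusted p from 0.0631 to 0.119).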

How the results depend on the processing

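Of 130 member results, 40 were called, 25 of these whichever library was left out and 10 under every alternative in which the gene was tested. Among the 10 were Klf2, Klf7, Klf10 and Klf15 between adipogenic and osteogenic cells, and Klf6 at day 7 of both media against day 0. The rest were Klf13 and Klf15 in adipogenic cells against day 0, and Klf4 at osteogenic day 15 and with VD3 at day 0. Klf2 and Klf13 were not tested with the filter at 5 RPKM. For Klf13 and Klf15 against day 0, background subtraction could not give a fall. The cause of the changes below was not tested.

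Signs turned mostly in comparisons with day 0. Quantile normalization gave Klf2 0.93, 0.95 and 0.19 at osteogenic days 7 and 15 and adipogenic day 7, Klf11 0.17, 0.25 and 0.95, Klf13 0.91 and 0.75 at the 2 osteogenic times, Klf7 0.10 at osteogenic day 15 and 0.088 at adipogenic day 7, and Klf15 0.51 at osteogenic day 7. Background subtraction gave Klf2 1.35, 1.33 and 0.054 and, with VD3 at day 0, 0.22, Klf11 0.96, 1.02 and 1.53, Klf13 1.13 and 0.86 at the osteogenic times, Klf7 1.05 and 0.64, and Klf3 0.60 in adipogenic cells. The day 0 vehicle values of Klf2 and Klf13 had become 0, so no fall could show for these 2 genes. Among VD3-treated libraries, Klf2 and Klf13 were 0.58 and 0.44 at osteogenic day 7, and Klf4 and Klf5 were 0.63 and 0.072 in adipogenic cells. With day 0 VD3 replicate 2 as the only day 0 library, Klf5 was 0.19, 0.18 and 0.45, Klf11 0.022 at osteogenic day 7 and Klf4 0.69 in adipogenic cells.

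Counts of members called against day 0 at osteogenic day 7 (4) were 2 with a filter at 5 RPKM (6 members tested), 8 after background subtraction and 2 with replicate 2 alone. At osteogenic day 15 (6) they were 2 among VD3-treated libraries and 1 with replicate 2 alone, and in adipogenic cells (7) 4 with the filter and 4 with replicate 2 alone. Between osteogenic times (5) they were 2 after quantile normalization or background subtraction, and between media (7) 4 with the filter or background subtraction. With VD3 at day 0 (5) they were 2 with a pseudocount of 0.1, the filter, quantile normalization or background subtraction, and 1 when fewer groups were fitted. That narrower fit gave 0 at osteogenic day 7 and 0 at day 15, where quantile normalization and background subtraction also gave 0. In adipogenic cells (0) the pseudocount and the filter gave 1. For differences of VD3 effects, background subtraction gave 0 in each of the 3 comparisons with calls, the narrower fit 0, 1 and 0, and quantile normalization 0 between media.

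With 1 library left out, counts ran from 4 to 5, 5 to 7, 7 to 8, 1 to 3 and 7 to 7 in the 5 comparisons of states, from 2 to 4, 1 to 1, 0 to 1 and 0 to 0 with VD3 at day 0, osteogenic days 7 and 15 and adipogenic day 7, and from 0 to 2, 0 to 3 and 0 to 1 for the differences. A replicate block gave the same counts of members in all 13 comparisons (4, 6, 7, 5, 7, 5, 1, 1, 0, 1, 2, 0 and 1), and 13452 against 13510 genes for osteogenic day 7 against day 0. Median-ratio rescaling moved the median of all genes by -0.07 to 0.13, quantile normalization by -0.33 to 0.75 and background subtraction by -0.50 to 1.26. The least depth, 7.09 M reads, puts 3 reads on 1 kilobase at 0.423 RPKM, so levels of Klf5 near that are not resolved.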
